A study of Homo sapiens with 24 samples.

Results

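The genes described here are 9 members of the bone morphogenetic protein (BMP) pathway and of the ID family, out of 17448 genes measured on 24 expression arrays. The cells were SW1222, an established line from a human colorectal tumour. The 9 genes are the ligands BMP2 and BMP4, the pseudoreceptor BAMBI, the inhibitory Smads SMAD6 and SMAD7, and the transcriptional regulators ID1, ID2, ID3 and ID4. Each member was matched by its gene symbol to 1 probe set, and no member had a second one. The set was selected on the measured values of the knockout comparison, where ID1 read low in both DPPA3 knockout clones. The differences between a clone and its control are therefore given as a description, without a test.

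BMP ligands bind paired serine/threonine kinase receptors, which phosphorylate SMAD1, SMAD5 and SMAD9, and these enter the nucleus with SMAD4. The ID genes, SMAD6, SMAD7 and BAMBI are among the genes that this signal switches on. ID proteins bind basic helix-loop-helix factors and keep them from DNA, while SMAD6, SMAD7 and BAMBI restrain the receptors. In the colon, BMP activity is high towards the surface and opposes the stem cell state at the crypt base.

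The arrays formed 9 groups of SW1222 cells, all kept at 21% oxygen. DPPA3-OE cells, which carry inducible DPPA3, and control-OE cells were grown as Matrigel-embedded megacolonies (3D) with 5 µg/ml doxycycline for the last 5 days, on 3 arrays per line. The same lines were grown in 2D with 5 µg/ml doxycycline for 4 hours, again on 3 arrays per line. DPPA3 shRNA and control shRNA cells had 3 arrays each, and DPPA3 knockout clones 66 (C66) and 75 (C75) and cells with a scrambled guide RNA had 2 arrays each, all in 3D and untreated. DPPA3 encodes a germ cell and oocyte protein that binds UHRF1, a factor of DNA methylation maintenance. Each knockout line is 1 clone, and DPPA3-OE cells without doxycycline were not analysed here, so an effect of DPPA3 cannot be told apart from a standing difference between the lines. Time under the drug and culture changed together, so they cannot be told apart either. Whether replicate arrays came from separate cultures is not in the labels, so p-values cover only array-to-array spread, which may be technical.

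The values are log2 expression signals, and array medians lay between 4.01 and 4.12. Precision is limited by the number of arrays, with a median SE over genes of 0.12 log2 in comparisons of 3 with 3 arrays and 0.15 in those of 2 with 2. DPPA3 itself read 3.77, 4.54 and 4.74 in DPPA3-OE cells in 3D, against 2.99, 2.59 and 2.97 in control-OE cells, and was higher there (2.83-fold, limma adjusted p = 0.00251) and in 2D (3.58-fold, adjusted p = 0.000475). In 2D it read 4.73, 4.18 and 6.16 in DPPA3-OE cells, against 2.83, 3.27 and 3.47 in control-OE cells. It did not pass with the shRNA (log2 fold change -0.04, adjusted p = 0.9996), in C66 (-0.16, adjusted p = 0.971) or in C75 (0.19, adjusted p = 0.983). With the DPPA3 shRNA it read 2.71, 3.13 and 2.77, against 2.80, 2.78 and 3.15 with the control shRNA. C66 arrays gave 2.55 and 2.82, C75 arrays 3.19 and 2.89, against 2.68 and 3.03 in the scrambled-guide cells, so this probe set shows no loss in the cells labelled knockout or shRNA. The control signals, with means of 2.85 (scrambled guide) and 2.91 (control shRNA), were already under the median of all genes (4.09). A loss from signals this dim might not be seen, so a failed knockout or knockdown is not shown. Where the probe set lies relative to the edit is not known here. All 10 markers of colorectal epithelium had means above the median of all genes (4.09). Of the markers of other cells, 1 of 6 for fibroblasts (COL1A1, at 4.24), 0 of 4 for leukocytes and 0 of 3 for endothelium did.

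The 250 bases before the transcript start of ID1, ID2, ID3 and BAMBI are shown as examples of direct targets of the pathway. ID1, ID2 and BAMBI each passed in at least 1 tested comparison below, and ID3 in none. The sequences are from RefSeq, build GRCh38.p14, written 5′ to 3′ on the gene's own strand. Capitals mark GGCGCC and GGAGCC, forms of the GC-rich element bound by the BMP Smads, and CAGAC, the Smad-binding element, each searched on both strands. No 2 matches overlapped. The ID1 stretch is chr20:31605039-31605288 on the plus strand, that of ID2 chr2:8681806-8682055 on the plus strand, that of ID3 chr1:23559502-23559751 on the minus strand and that of BAMBI chr10:28677271-28677520 on the plus strand.
ID1: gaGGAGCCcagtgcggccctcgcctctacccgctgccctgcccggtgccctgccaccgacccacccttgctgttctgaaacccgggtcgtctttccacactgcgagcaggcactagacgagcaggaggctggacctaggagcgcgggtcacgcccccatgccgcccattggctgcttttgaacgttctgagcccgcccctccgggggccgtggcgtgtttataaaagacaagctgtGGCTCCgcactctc
ID2: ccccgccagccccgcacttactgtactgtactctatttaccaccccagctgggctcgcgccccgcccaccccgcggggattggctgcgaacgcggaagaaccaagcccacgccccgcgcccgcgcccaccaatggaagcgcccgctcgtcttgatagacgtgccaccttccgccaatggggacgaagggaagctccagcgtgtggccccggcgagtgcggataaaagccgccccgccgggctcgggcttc
ID3: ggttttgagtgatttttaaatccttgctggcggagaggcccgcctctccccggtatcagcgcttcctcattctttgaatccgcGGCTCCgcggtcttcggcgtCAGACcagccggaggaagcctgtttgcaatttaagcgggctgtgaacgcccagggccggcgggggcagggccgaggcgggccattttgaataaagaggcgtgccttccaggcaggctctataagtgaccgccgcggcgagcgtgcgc
BAMBI: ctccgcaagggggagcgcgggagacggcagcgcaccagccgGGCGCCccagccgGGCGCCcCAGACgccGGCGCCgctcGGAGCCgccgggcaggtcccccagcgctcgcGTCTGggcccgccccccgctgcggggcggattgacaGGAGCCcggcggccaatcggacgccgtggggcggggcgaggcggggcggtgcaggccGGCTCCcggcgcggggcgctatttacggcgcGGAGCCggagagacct
ID1 had 2 matches to GGAGCC, ID2 had 0 to any of the 3 motifs, and ID3 had 1 to GGAGCC and 1 to CAGAC. BAMBI had 3 matches to GGCGCC, 4 to GGAGCC and 2 to CAGAC. Of all 35116 upstream stretches of this length, 16.4% held GGCGCC, 30.6% held GGAGCC and 38.0% held CAGAC. G and C made up 81.2% of BAMBI's stretch, 66.0% of ID1's, 69.2% of ID2's and 62.0% of ID3's. A match is a string of letters here, not a measured binding site. Only these 250 bases were searched, so the lack of a match says nothing about sites elsewhere. Of the 9 members, 8 were in the sequence table.

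ID1 read lower in both knockout clones than in their control. C66 had signals of 5.41 and 5.41, C75 had 4.85 and 5.24, against 6.13 and 6.04 in the scrambled-guide cells. All 4 clone arrays lay below both control arrays. The log2 difference from the control was -0.68 in C66 and -1.04 in C75, or 0.625 and 0.486 of the control signal. Lower signal in such bulk samples cannot tell fewer expressing cells from less RNA per cell.

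Other members also read lower in the clones, more of them in C75. Both C66 arrays lay below both control arrays for 5 of 9 members, where 22.5% of all genes did so, and both C75 arrays for 8 of 9, where 20.7% did so. Nothing is read from these counts, since the knockout contrasts served to choose the set. In both clones at once it was 4 members (ID1, ID4, SMAD6 and BMP2), against 9.34% of all genes. The median member difference was -0.16 in C66 and -0.36 in C75, while the median of all genes was -0.0080 and -0.0015.

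ID2 stood at the control level in C66 and below it in C75. C66 arrays gave 5.56 and 5.57, C75 arrays 5.18 and 5.14, against 5.49 and 5.60 in the scrambled-guide cells, log2 differences of 0.02 and -0.39. ID3 had 5.82 and 5.60 in C66, with 5.30 and 5.74 in C75, against 5.81 and 5.88 in the control, and its C66 arrays overlapped the control. ID4 had 4.68 and 4.27 in C66, with 4.44 and 4.57 in C75, against 4.86 and 4.81 in the control, differences of -0.36 and -0.33. ID4 was thus low by a like amount in both clones, although the 2 arrays of C66 stood far apart.

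The ligand BMP4 read below its control in C75 and overlapped it in C66. Its signals were 4.93 and 5.13 in C66, with 4.68 and 4.39 in C75, against 5.18 and 5.10 in the scrambled-guide cells, differences of -0.11 and -0.61. BMP2, at 3.27 and 3.18 in C66 with 3.25 and 3.09 in C75, against 3.67 and 3.39 in the control, differed by -0.30 and -0.36. BMP2, SMAD6 and SMAD7 gave signals under the median of all genes. SMAD6 read 3.57 and 3.49 in C66, with 3.47 and 3.51 in C75, against 3.59 and 3.80 in the control. Its differences were -0.16 and -0.21. SMAD7 read 2.53 and 2.70 in C66, with 2.83 and 2.83 in C75, against 2.93 and 2.71 in the control. Its differences were -0.20 in C66 and 0.01 in C75. For both genes the higher C66 array lay barely below the lower control array.

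BAMBI, which resembles a BMP receptor without the kinase, read low in C75 and not in C66. Its signals were 5.75 and 6.05 in C66, with 4.64 and 4.59 in C75, against 5.95 and 5.45 in the scrambled-guide cells. C66 overlapped the control, while both C75 arrays lay far below it, with differences of 0.20 and -1.08.

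The comparison of C75 with C66 leaves out the scrambled-guide arrays but uses the clone arrays on which the set was chosen. The ID1 values in it are therefore not independent of that choice. By limma, with Benjamini-Hochberg adjustment over all genes, 1 of 9 members passed, while 2.9% of all genes did, 0.923% higher and 1.98% lower. BAMBI was lower in C75 by a log2 fold change of -1.28 (SE 0.20, 95% interval -1.69 to -0.88, adjusted p = 1.47e-04), and it passed in all 11 alternatives tried. ID2 (-0.41, adjusted p = 0.130), ID1 (-0.36, adjusted p = 0.278) and BMP4 (-0.49, adjusted p = 0.272) had no array overlap between the clones but did not pass. The 95% interval of ID1 was -0.66 to -0.07. The other members lay between -0.19 (ID3) and 0.21 (SMAD7, adjusted p = 0.777). SMAD7 arrays did not overlap either, in the other direction, being higher in C75. The share of all genes without overlap between the clones was not counted, so nothing is read from these separations.

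**Figure D1:**
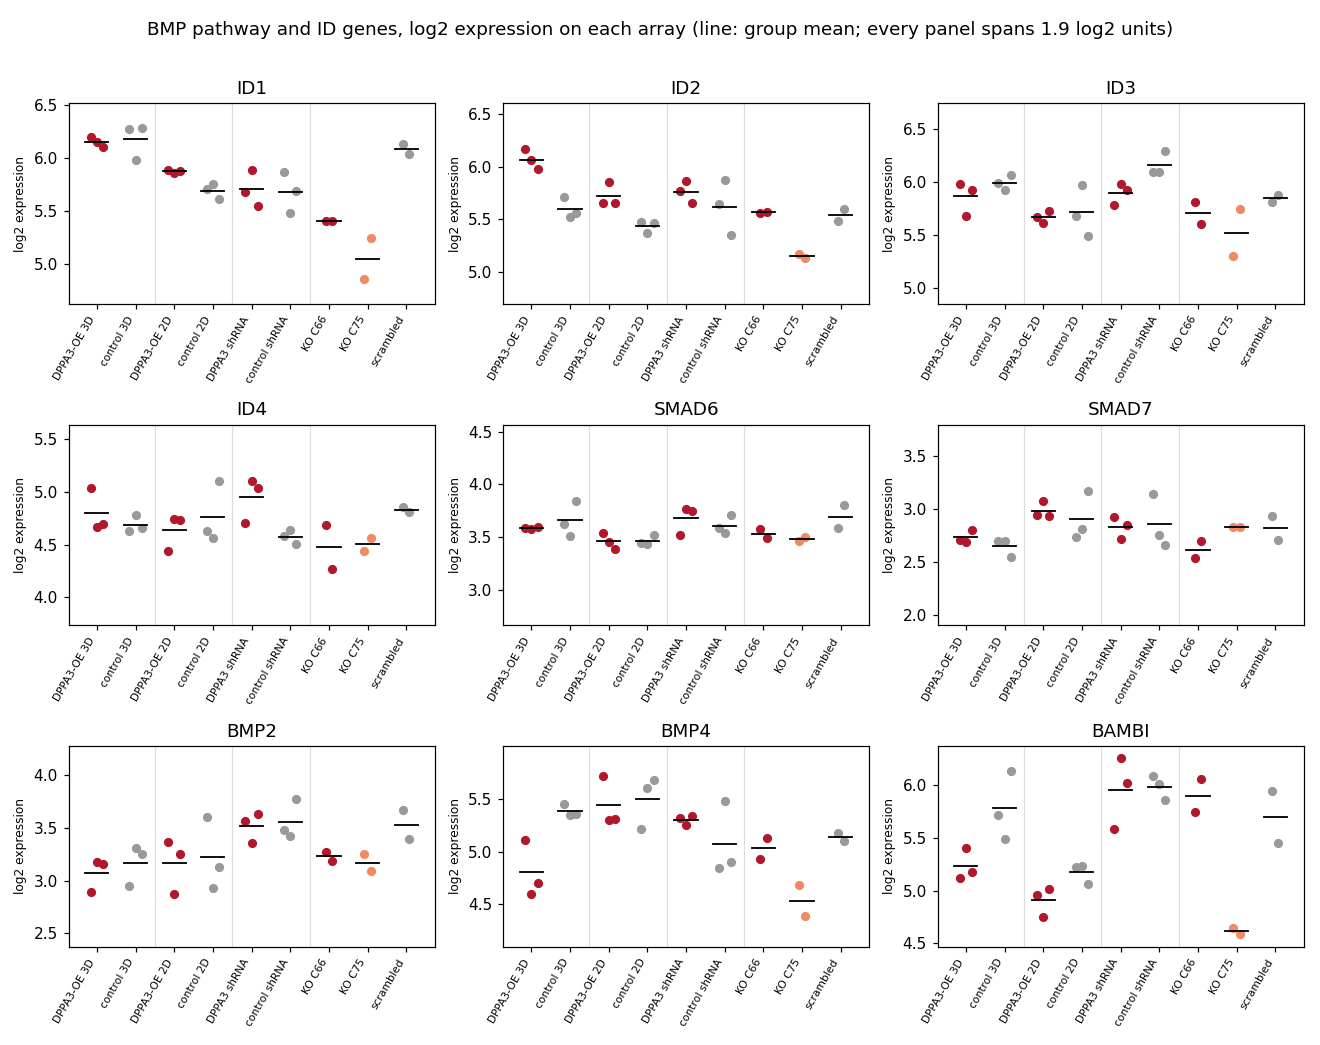
Log2 expression (vertical axes, each spanning 1.9 log2 units) of the 9 members on each of the 24 arrays, by group, with the group mean as a line; red and orange points are DPPA3-OE, DPPA3 shRNA and knockout arrays, grey points their controls. ID1 is lowest in C66 and C75, with all 4 arrays below both scrambled-guide arrays, and BAMBI is low in C75 but not in C66.

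In 3D, DPPA3-OE cells had more ID2 and less BMP4 and BAMBI than control-OE cells, while ID1 did not pass. In this comparison 3 of 9 members passed, 1 higher and 2 lower, where 5.7% of all genes passed, 2.93% higher and 2.77% lower. The median member fold change was -0.08, against -0.01 for all genes.

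ID2 read 6.16, 6.06 and 5.97 in DPPA3-OE cells, against 5.72, 5.52 and 5.56 in control-OE cells. The groups did not overlap, and ID2 rose by 0.47 log2 (SE 0.11, limma adjusted p = 0.00913). Without DPPA3-OE replicate 1 it was 0.42 and missed the threshold (adjusted p = 0.0582). This was the highest signal of ID2 in any of the 9 groups.

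BMP4, a ligand of the colonic mesenchyme that tumour cells can also make, read 5.11, 4.59 and 4.71 in DPPA3-OE cells, against 5.45, 5.34 and 5.36 in control-OE cells. All 3 DPPA3-OE arrays were lower, and BMP4 fell by 0.58 on the log2 scale (SE 0.16, adjusted p = 0.0271). The call ended without DPPA3-OE replicate 2 (adjusted p = 0.120) or 3 (adjusted p = 0.114) and without control-OE replicate 1 (adjusted p = 0.0913), 2 (adjusted p = 0.0589) or 3 (adjusted p = 0.0598). With the variance of the compared arrays alone the adjusted p was 0.0530. The fold change stayed between -0.73 and -0.47 in the 13 alternatives.

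BAMBI read 5.12, 5.40 and 5.18 in DPPA3-OE cells, against 5.72, 5.49 and 6.13 in control-OE cells. It fell by 0.55 (SE 0.16, adjusted p = 0.0424), with no overlap. The call ended without DPPA3-OE replicate 1 (adjusted p = 0.171) or 3 (adjusted p = 0.136), without control-OE replicate 1 (adjusted p = 0.0758) or 3 (adjusted p = 0.273), with the replicate number as a block (adjusted p = 0.0796), and with the variance of the compared arrays alone (adjusted p = 0.115). The control-OE arrays were widely spread, and without their replicate 3 the fold change was -0.37.

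ID1 read 6.20, 6.15 and 6.11 in DPPA3-OE cells, against 6.27, 5.98 and 6.29 in control-OE cells. The DPPA3-OE arrays lay within the range of the control arrays. The fold change was -0.03 (95% interval -0.27 to 0.21, adjusted p = 0.959). ID3 (-0.13), ID4 (0.11), SMAD6 (-0.08), SMAD7 (0.08) and BMP2 (-0.10) did not pass either, with adjusted p from 0.725 (ID3) to 0.874 (BMP2).

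After 4 hours in 2D, 0 of 9 members passed by limma, where 3.13% of all genes passed, 1.87% higher and 1.26% lower. Only ID2 had an unadjusted p under 0.05, and the share of all genes at that level was not counted. ID2 read 5.66, 5.85 and 5.66 in DPPA3-OE cells, against 5.48, 5.37 and 5.47 in control-OE cells. The arrays did not overlap, as in 3D, but the fold change of 0.28 had an adjusted p = 0.211. ID1 read 5.89, 5.86 and 5.88 in DPPA3-OE cells, against 5.71, 5.75 and 5.61, with a fold change of 0.18 (95% interval -0.05 to 0.42, adjusted p = 0.537). BAMBI read 4.95, 4.75 and 5.02, against 5.23, 5.23 and 5.07, with a fold change of -0.27 (adjusted p = 0.508). BMP4 was at -0.06 and its arrays overlapped. The other members lay between -0.13 (ID4) and 0.08 (SMAD7).

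The difference between the induction effects in 3D and in 2D passed for 0 of 9 members, while 0.241% of all genes passed, 0.103% higher and 0.138% lower. An unadjusted p under 0.05 was found for 1 member, and the share of all genes at that level was not counted. BMP4 had the widest difference of effects, -0.52 in 3D minus 2D (95% interval -0.98 to -0.06, adjusted p = 0.475). For ID2 the difference was 0.18 (adjusted p = 0.798) and for BAMBI -0.28 (adjusted p = 0.789). Their calls in 3D and not in 2D are thus not shown to differ.

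The DPPA3 shRNA moved no member past the threshold, with 0 of 9 members passing by limma and 2 having an unadjusted p under 0.05. Of all genes 0.086% passed, 0.0344% higher and 0.0516% lower. The share of all genes with an unadjusted p under 0.05 was not counted. ID4 read 4.71, 5.10 and 5.04 with the DPPA3 shRNA, against 4.58, 4.64 and 4.50 with the control shRNA. These arrays did not overlap, with a fold change of 0.37 (adjusted p = 0.743). ID3, at 5.78, 5.99 and 5.92 against 6.09, 6.10 and 6.30, did not overlap in the other direction (-0.27, adjusted p = 0.918). ID1 read 5.68, 5.89 and 5.55, against 5.87, 5.48 and 5.69, with a fold change of 0.03 (95% interval -0.21 to 0.26).

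**Figure D2:**
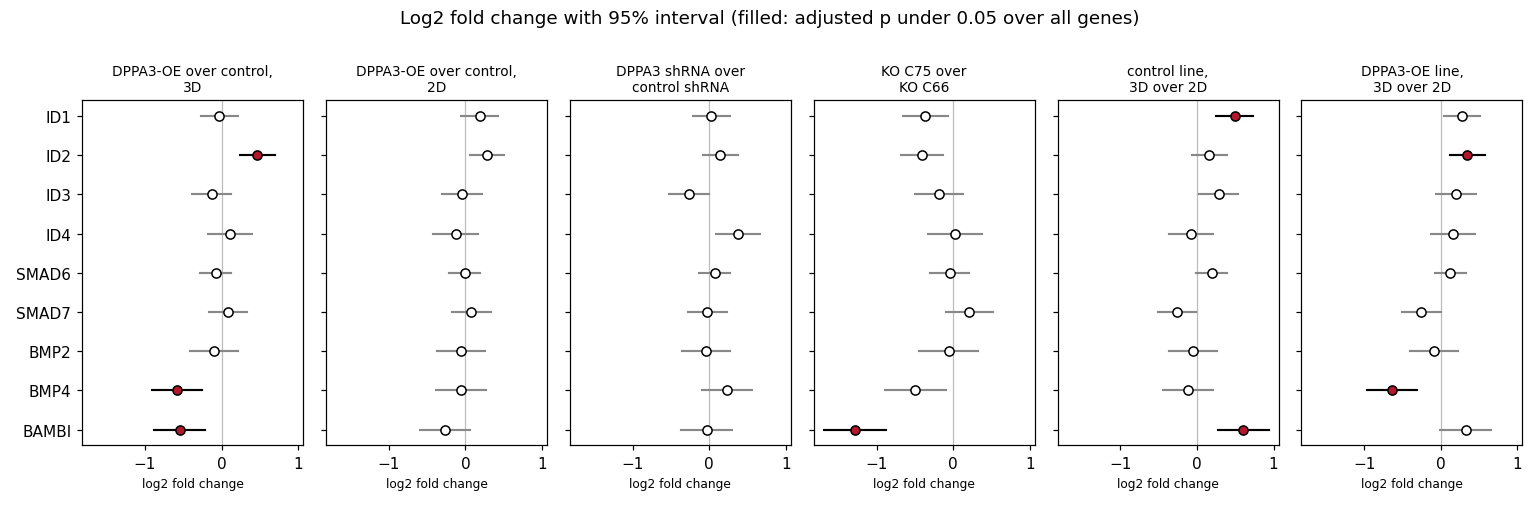
Log2 fold change of each member (points, horizontal axes) with its 95% interval (lines) in 6 comparisons; filled red points passed at an adjusted p under 0.05 over all genes. ID2 is higher and BMP4 and BAMBI are lower in DPPA3-OE cells in 3D, BAMBI is lower in C75 than in C66, and no member is filled in the 2D induction or the shRNA comparison.

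Growth in 3D was set against 2D within each line, with the drug given for 5 days in 3D and 4 hours in 2D. In control-OE cells ID1 and BAMBI were higher in 3D, the only 2 of 9 members that passed, while 7.8% of all genes passed, 4.92% higher and 2.88% lower. ID1 read 6.27, 5.98 and 6.29 in 3D, against 5.71, 5.75 and 5.61 in 2D, and rose by 0.49 (SE 0.12, adjusted p = 0.00976). ID1 passed in 12 of 13 alternatives, and missed the threshold with the variance of these 6 arrays alone (adjusted p = 0.0513). BAMBI read 5.72, 5.49 and 6.13 in 3D, against 5.23, 5.23 and 5.07 in 2D, and rose by 0.60 (SE 0.16, adjusted p = 0.0203). BAMBI missed it without the 3D replicate 3 (0.43, adjusted p = 0.125) or the 2D replicate 3 (0.55, adjusted p = 0.0775). ID3 (0.28, adjusted p = 0.177), SMAD6 (0.19, adjusted p = 0.259) and ID2 (0.16, adjusted p = 0.432) did not pass. SMAD7 was at -0.26 with no overlap of arrays (adjusted p = 0.209).

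In DPPA3-OE cells ID2 was higher and BMP4 lower in 3D than in 2D, 2 of 9 members, while 14.9% of all genes passed, 7.55% higher and 7.35% lower. ID2 read 6.16, 6.06 and 5.97 in 3D, against 5.66, 5.85 and 5.66 in 2D, without overlap. ID2 rose by 0.34 (SE 0.11, adjusted p = 0.0343) and BMP4 fell by 0.63 (SE 0.16, adjusted p = 0.00642). BMP4 read 5.11, 4.59 and 4.71 in 3D, against 5.71, 5.30 and 5.31 in 2D, without overlap. It missed the threshold without the 2D replicate 1 (-0.496, adjusted p = 0.0565). ID2 missed it without the 3D replicate 1 (adjusted p = 0.138) or 2 (adjusted p = 0.0673), without the 2D replicate 1 (adjusted p = 0.112) or 3 (adjusted p = 0.113), with arrays centred on their medians (adjusted p = 0.0601), and with the variance of the compared arrays alone (adjusted p = 0.0727). ID1 was at 0.28 (adjusted p = 0.123) and BAMBI at 0.32 (adjusted p = 0.205), both without overlap of arrays. These comparisons use the same arrays as the induction comparisons, so their values are not independent of them. The difference between the lines in 3D over 2D is the same contrast as the difference of induction effects above. There 0 of 9 members passed, so the lines are not shown to differ in their response to culture.

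The genes beside BAMBI on the chromosome were lower in several of the same comparisons. Its 5 measured neighbours on each side in the RefSeq gene order, counting genes with a mean above the median, were MASTL, ACBD5, RAB18, MPP7 and WAC before it and SVIL, ARHGAP12, KIF5B, ITGB1 and PARD3 after it, named here after their values were seen. With DPPA3-OE in 3D, all 10 had fold changes below 0, with a median of -0.52 beside -0.55 for BAMBI, and 8 passed as lower, against 2.77% of all genes. In 2D all 10 were again below 0, with a median of -0.47 beside -0.27 for BAMBI, and 5 passed as lower, against 1.26% of all genes. In C75 against the scrambled guide, 9 of 10 were below 0, with a median of -0.68 beside -1.08 for BAMBI, and 7 passed, where 0.481% of all genes passed as lower. In C66 their median was 0.07 and 0 passed by limma, and with the shRNA it was -0.10 and 0 passed. Between C75 and C66, 8 of the 10 passed as lower, against 1.98% of all genes. The count in 3D was 5 without DPPA3-OE replicate 1 or 3 and 4 without control-OE replicate 3. In 2D it was 3 without control-OE replicate 3. In C75 over the scrambled guide it was 1 and 3 without control replicates 1 and 2 and 3 and 2 without C75 replicates 1 and 2. Between the clones it was 5 without C66 replicate 1 or C75 replicate 2. Neighbours were picked among genes with a mean above the median, while these shares cover all genes, dim ones included. The share among the brighter genes was not counted, here or for the neighbours below. The part of this neighbourhood in the BAMBI values was not tested.

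The neighbours of the other members were examined in the same way. The 10 neighbours of ID1 had a median of -0.0010 in C66 and 0.06 in C75, where ID1 was at -0.68 and -1.04, and 0 of them passed by limma in either clone. Those of BMP4 had a median of -0.06 with DPPA3-OE in 3D and 0.01 in C75, beside -0.58 and -0.61 for BMP4. Those of ID2 had a median of -0.02 with DPPA3-OE in 3D, beside 0.47 for ID2. In DPPA3-OE cells in 3D over 2D, the neighbours of BMP4 had a median of -0.18, with 9 of 10 below 0 and 3 lower past the threshold, beside -0.63 for BMP4. Those of ID2 ran there from -0.62 to 0.40, with 4 lower and 1 higher past the threshold, beside 0.34 for ID2. Of all genes in that comparison, 7.35% passed as lower and 7.55% as higher, and 56.0% had fold changes below 0. The neighbours of SMAD6 had a median of -0.54 in C66, with 9 of 10 below 0. Of these neighbours 4 passed as lower by limma, where 0.562% of all genes did. Between C75 and C66, 4 passed as higher, against 0.923% of all genes. SMAD6 itself was at -0.16 in C66, with a signal under the median of all genes, which limits what it can show.

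**Figure D3:**
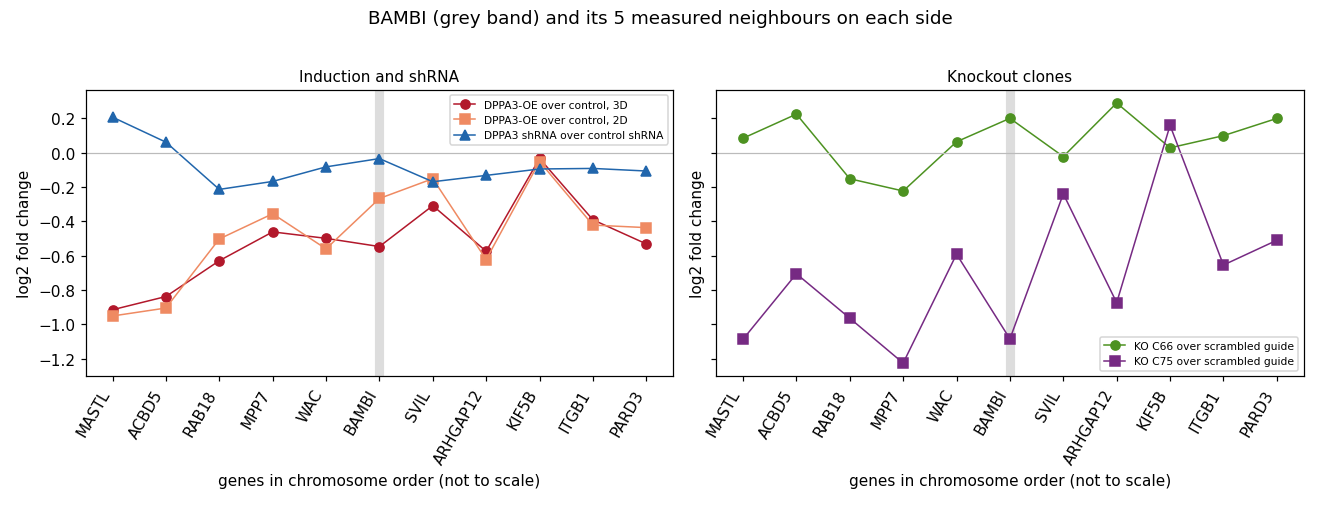
Log2 fold change (vertical axes) of BAMBI, marked by the grey band, and of its 5 measured neighbours on each side, in gene order and not to scale, for the induction and shRNA comparisons on the left and for both knockout clones against the scrambled guide on the right. All 10 neighbours lie below 0 with DPPA3-OE in 3D and in 2D, and 9 of 10 do so in C75, while C66 and the shRNA stay near 0.

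The levels of ID1 over the 9 groups were separated without overlap at 3 places in their order. The highest means were 6.18 ± 0.17 in control-OE 3D, 6.15 ± 0.04 in DPPA3-OE 3D (SD, n = 3 each) and 6.09 ± 0.06 in scrambled-guide cells (SD, n = 2), whose arrays overlapped from one to the next. Next came DPPA3-OE 2D at 5.88 ± 0.02, DPPA3 shRNA at 5.70 ± 0.17, control-OE 2D at 5.69 ± 0.07 and control shRNA at 5.68 ± 0.19 (SD, n = 3 each). These overlapped in turn as well. C66 at 5.41 ± 0.00 and C75 at 5.05 ± 0.27 (SD, n = 2 each) stood below, with no overlap between them or with the control shRNA. Both shRNA groups, grown in 3D, thus overlapped the 2D control, and the experiments were not compared by a test.

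BAMBI ranged over 1.37 log2 between its highest group mean, 5.98 ± 0.11 in control shRNA cells (n = 3), and its lowest, 4.62 ± 0.04 in C75 (n = 2). ID1 ranged over 1.13, BMP4 over 0.96 and ID2 over 0.91. These ranges take in the knockout arrays that served to choose the set, C75 being the lowest group of all 4 genes, and are a description only. ID3 ranged over 0.64, ID4 over 0.47 and BMP2 over 0.48. SMAD6 and SMAD7, inhibitors that BMP signalling induces, ranged over 0.23 and 0.37. A log2 signal near background understates a change, and both signals were under the median of all genes. BMP4 and ID2 were lowest in C75 too, while BMP4 was highest in control-OE 2D and ID2 in DPPA3-OE 3D.

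With the mean of each experiment and culture taken off, ID1 correlated over the 24 arrays with SMAD6 (r = 0.52), BAMBI (r = 0.51) and ID3 (r = 0.51), and less with ID2 (0.36), ID4 (0.29), BMP4 (0.28), BMP2 (0.26) and SMAD7 (0.07). These are descriptions over arrays that share lines and cultures, and they include the knockout arrays whose low ID1 chose the set. Among 8723 genes with a mean above the median, the 5 most like ID1 were NADK (r = 0.81), KLK11 (0.76), PKMYT1 (0.75), EAPP (0.74) and SPIRE2 (0.72). Among the same genes BAMBI stood in place 141, ID3 in 147, ID2 in 699, ID4 in 1212 and BMP4 in 1299.

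The rest of the pathway was followed through 65 measured genes of 70 listed by role. Only 25 of the 65 had a mean above the median of all genes, among them 3 of 12 other ligands, 3 of 10 receptors and co-receptors, 3 of 4 signalling Smads and 2 of 13 secreted antagonists. With DPPA3-OE in 3D, 1 gene was higher and 1 lower, or 3.08% of the list, beside 5.7% of all genes. RGMB, a BMP co-receptor, read 5.67, 5.23 and 5.35 in DPPA3-OE cells, against 4.68, 4.79 and 4.45 in control-OE cells. It rose by 0.78 (SE 0.14, adjusted p = 7.53e-04) and passed in all 13 alternatives. TGFBR2, the type II receptor of TGF-beta, read 6.30, 6.22 and 6.23, against 6.77, 6.75 and 6.70, and fell by 0.49 (adjusted p = 9.46e-04), also in all 13. In 2D, TGFBR2 fell by 0.33 (adjusted p = 0.0452) as the single call among the 65. It missed the threshold without any single 2D array, with adjusted p from 0.0518 without control-OE replicate 3 to 0.238 without DPPA3-OE replicate 2. It also missed it with the replicate block (adjusted p = 0.0920), with the variance of the compared arrays alone (adjusted p = 0.250) and with a trended, robust prior (adjusted p = 0.0507), and passed in 4 of 13 alternatives.

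With the shRNA 0 of the 65 passed by limma, where 0.086% of all genes did, and 8 had an unadjusted p under 0.05. The share of all genes at that unadjusted level was not counted, so nothing is read from the 8. In C75 over the scrambled guide 0 passed, where 0.619% of all genes passed, 0.138% higher and 0.481% lower. Of the 65, 1 had an unadjusted p under 0.05 there, and the share of all genes at that level was again not counted. In C66, SMAD3, which carries TGF-beta signals, read 5.51 and 5.66, against 6.34 and 6.05 in scrambled-guide cells. It fell by 0.61 (adjusted p = 0.0132) as the single call, where 1.43% of all genes passed, 0.871% higher and 0.562% lower. The call ended without scrambled-guide replicate 1 (adjusted p = 0.314) or C66 replicate 1 (adjusted p = 0.213) or 2 (adjusted p = 0.0519), and with the variance of the compared arrays alone (adjusted p = 0.0668). SMAD3 lies next to SMAD6 in the gene order and is 1 of the 10 SMAD6 neighbours with a median of -0.54 in C66, 9 of them below 0. The part of that neighbourhood in the SMAD3 value was not tested. The signalling Smads SMAD1, SMAD5, SMAD9 and SMAD4 passed in none of the 9 comparisons.

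Between the clones 4 of the 65 passed, 1 higher and 3 lower in C75, or 6.15% beside 2.9% of all genes. RGMB was higher (0.68, adjusted p = 0.0258), at 4.31 and 4.63 in C75 and 3.84 and 3.76 in C66. The osteogenic factor RUNX2 (-0.79, adjusted p = 0.0233), the ligand BMP8B (-0.67, adjusted p = 0.0432) and TGFB1 (-0.53, adjusted p = 0.0343) were lower. Each of the 4 lost its call without single arrays. Without C66 replicates 1 and 2 the adjusted p was 0.123 and 0.201 for RGMB, 0.304 and 0.0574 for RUNX2, 0.218 and 0.228 for BMP8B, and 0.398 and 0.0617 for TGFB1. Without C75 replicate 1 it was 0.337 for RUNX2, 0.142 for BMP8B and 0.188 for TGFB1, and without C75 replicate 2 it was 0.393 for RGMB, 0.314 for BMP8B and 0.192 for TGFB1. BMP8B also missed the threshold with the replicate block (adjusted p = 0.0698) and after quantile normalization (adjusted p = 0.0580), and TGFB1 with the variance of the compared arrays alone (adjusted p = 0.0592).

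In 3D over 2D, 3 of the 65 passed in control-OE cells (4.62%, beside 7.8% of all genes) and 5 in DPPA3-OE cells (7.69%, beside 14.9%). The difference between the lines passed for 0 of the 65, beside 0.241% of all genes, so the lines are not shown to differ. In control-OE cells the type II receptor BMPR2 (0.52, adjusted p = 0.0165) and TCF12 (0.45, adjusted p = 0.00440), an E protein that ID proteins bind, were higher in 3D, and the dim ligand BMP5 was lower (-0.34, adjusted p = 0.0372). BMPR2 missed the threshold without the 3D replicate 2 (adjusted p = 0.0551) or 3 (adjusted p = 0.0951) or the 2D replicate 1 (adjusted p = 0.0772) or 3 (adjusted p = 0.0585). BMP5 missed it without the 3D replicate 1 (adjusted p = 0.208) or 2 (adjusted p = 0.0818) or the 2D replicate 1 (adjusted p = 0.126) or 2 (adjusted p = 0.0816). BMP5 also missed it with the replicate block (adjusted p = 0.0630), after quantile normalization (adjusted p = 0.0766) and with the variance of the compared arrays alone (adjusted p = 0.177), as BMPR2 did with that variance (adjusted p = 0.0807). In DPPA3-OE cells RGMB (0.86, adjusted p = 1.09e-04), SMAD3 (0.46, adjusted p = 0.00411) and TCF12 (0.41, adjusted p = 0.00414) were higher in 3D. The homeobox gene MSX2, a BMP target, was lower. It read 5.32, 4.71 and 4.81 in 3D, against 5.61, 5.72 and 5.57 in 2D, and fell by 0.69 (adjusted p = 7.39e-04). The co-receptor RGMA was lower too (-0.35, adjusted p = 0.0401), but it missed the threshold without any single array of this comparison, with adjusted p from 0.0648 to 0.117, and with a trended, robust prior (adjusted p = 0.0558).

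**Figure D4:**
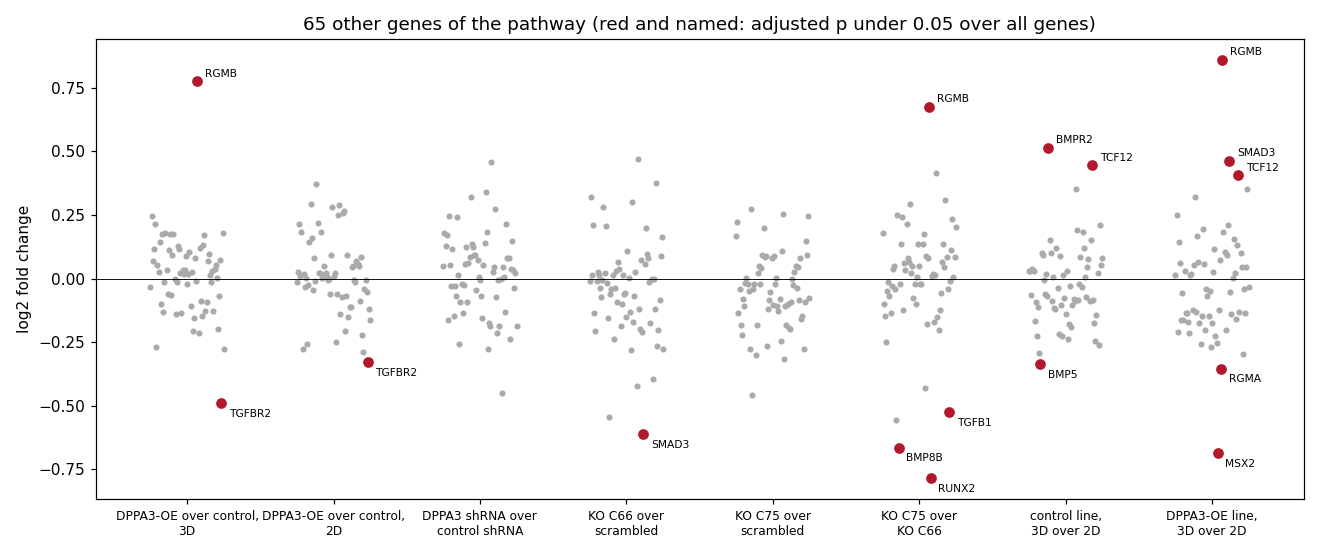
Log2 fold change (vertical axis) of 65 other genes of the pathway, 1 point per gene, in 8 comparisons; the genes in red, which carry their names, passed at an adjusted p under 0.05 over all genes. RGMB is higher and TGFBR2 lower with DPPA3-OE in 3D, and no gene is red with the shRNA or in C75 against the scrambled guide.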

How the data were processed

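Expression was measured on 24 Affymetrix arrays, whose 9 groups come from the labels. The authors deposited log2 signals, and the submitters' processing notes name Partek 6.6 and RMA. RMA usually equalises arrays by quantiles, so a shift shared by most genes is not visible. No genome build is named for the probe sets. Of 20276 probe sets, 18062 had 1 gene symbol, and the brightest per gene was kept (17448 genes). Left out were 1288 probe sets with several symbols and 926 unnamed ones.

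All arrays entered a single limma 3.58.1 model (R 4.3.3) with 1 mean per group (15 residual and 9.81 prior degrees of freedom), which was tested on simulated data. Genes passed below 0.05 after 2-sided Benjamini-Hochberg adjustment across the 17448 genes. All members were named in every comparison, with up to 6 passing pathway genes and the 5 genes most like ID1. The members and lists were chosen with earlier results of these data known. Scan dates and slides were not analysed here. Across genes, arrays of 1 group had r = 0.987 to 0.994, and none were identical. Alternatives changed normalization, variance, the filter on dim genes, probe sets, the replicate block and each single array.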

Additional observations from a re-analysis of the deposited data

Results flagged for a closer look

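BAMBI differed between the knockout clones by a test of the difference itself, with a log2 fold change of -1.28 for C75 over C66 (adjusted p = 1.47e-04). Of its 10 neighbours 8 were lower in C75 than in C66 as well, with the counts without single arrays given above. The test used clone arrays that also served to choose the set.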

How the results depend on the processing

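In every setting tried, no call changed its direction. The count of members that passed for DPPA3-OE over control-OE in 3D was 3, 1 with the variance of these arrays alone, and 1 to 2 without single arrays. For control-OE 3D over 2D it was 2, 0 with the variance of these arrays alone, 1 after quantile normalization within the experiment, and 1 to 2 without single arrays. For DPPA3-OE 3D over 2D it was 2, 1 with the variance of these arrays alone or with arrays centred on their medians, and 0 to 2 without single arrays. It stayed at 0 for induction in 2D, the difference of effects and the shRNA, and at 1 between the clones. With a single array left out, all remaining clone arrays lay below all remaining scrambled-guide arrays for 6 to 7 members in C66 and 8 to 9 in C75. Fewer arrays make this easier to meet. The share of all genes was not counted with an array left out, so nothing is read from these counts. No pairing of arrays by replicate number was seen. Deviations of same-numbered arrays correlated at -0.21 to 0.17, and 6 of 18 arrays correlated best with their own number. With 2 or 3 arrays per group this check cannot exclude pairing. With the replicate block, 903 genes passed for induction in 3D instead of 995, and 2 members instead of 3, since BAMBI did not pass (adjusted p = 0.0796). The block also ended the calls of TGFBR2 in 2D, BMP8B between the clones and BMP5 in control-OE 3D over 2D, with the values given above. With the variance of the compared arrays alone, BAMBI (adjusted p = 0.0543), ID1 (adjusted p = 0.0513), TCF12 (adjusted p = 0.0629), BMPR2 (adjusted p = 0.0807) and BMP5 (adjusted p = 0.177) missed the threshold in control-OE 3D over 2D. The filter on dim genes kept 6 members. Dim signals limit what SMAD6, SMAD7 and BMP2 can show.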
